A study of Mus musculus with 4 samples.

Results

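The genes described here are 10 members of the insulin-like growth factor (IGF) system, measured in MC38, a mouse colon cancer cell line: the receptors Igf1r, Igf2r and Insr, the receptor substrates Irs1 and Irs2, and the binding proteins Igfbp2, Igfbp3, Igfbp4, Igfbp6 and Igfbp7. They were chosen by symbol, whatever their values, from the 36445 genes of the deposited table, and each symbol matched exactly 1 row. Cells in a serum-containing medium received PBS (the control) or 1 mM 5-FU for 24 h, and polyadenylated RNA was sequenced from 2 libraries per group. 5-FU (5-fluorouracil) is a chemotherapy drug, a uracil analogue that cells turn into nucleotides which inhibit thymidylate synthase and are built into nucleic acids. The labels separate the groups by treatment alone, and MC38 is a single established line. The labels do not say whether the libraries of a group came from separate cultures, so the p-values below measure only the spread between these libraries, which may be technical.

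IGF1 and IGF2 are secreted growth factors that act through the tyrosine kinase receptor encoded by Igf1r, a close relative of the insulin receptor encoded by Insr. The activated receptors phosphorylate the docking proteins encoded by Irs1 and Irs2, which recruit PI3 kinase and so turn on AKT and mTOR. The product of Igf2r, also known as the cation-independent mannose 6-phosphate receptor, has no kinase: it takes up IGF2 for breakdown and sorts lysosomal enzymes. The IGF binding proteins hold IGFs in the fluid around cells and limit or prolong their access to the receptor. In colon cancer this system is known as a growth and survival pathway.

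The libraries held an estimated 41.3 and 41.6 M reads (PBS) and 20.8 and 20.6 M reads (5-FU), read from the smallest steps of the FPKM values, so counting error is larger after 5-FU. Of the 7 epithelial markers and 5 colon epithelial markers looked at, 0 reached 1 FPKM in all libraries, and the highest single values were 0.505 and 0.806 FPKM. The cells were labelled as colon cancer, but these defining epithelial markers were near 0. The summed colon epithelial markers were 0.0596 and 0.162 FPKM in PBS and 0.738 and 0.856 in 5-FU, mostly Vil1, and their part in the results below was not tested. The 6 mesenchymal markers summed to 1380 and 1504 FPKM in PBS and to 1309 and 1267 in 5-FU, mostly Vim. Of these 6, Fn1 and Pdgfra passed as lower (log2 difference -1.10 and -1.25, limma adjusted p = 0.0155 and 0.0204) and the other 4 did not pass, and their part was not tested either. The 5 leukocyte markers summed to at most 0.102 FPKM and the 3 endothelial markers to at most 0.257 FPKM. The PBS pair differed more (median absolute log2 difference 0.271 over tested genes) than the 5-FU pair (0.0729).

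After 5-FU the transcripts of all 3 receptors and of Irs1 were lower than in PBS, Igfbp4 was modestly higher, and Igfbp6, the most abundant of the 10, did not pass the test. FPKM is a fragment count corrected for transcript length and sequencing depth, so levels can be set side by side between genes. Differences were tested with limma on log2(FPKM + 1) over the 11644 genes that reached 1 FPKM in 2 or more libraries, and a Benjamini-Hochberg adjusted p under 0.05 counted as passed. Among all tested genes 31.2% passed as lower and 22.1% as higher, 53.3% in either direction, so a fall or a rise was common in these libraries. Of the 10 members 6 could be tested, of which 4 fell, 1 rose and 1 did not pass. Irs2, Igfbp2, Igfbp3 and Igfbp7 stayed below 0.2 FPKM in every library and were not tested.

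**Figure D1:**
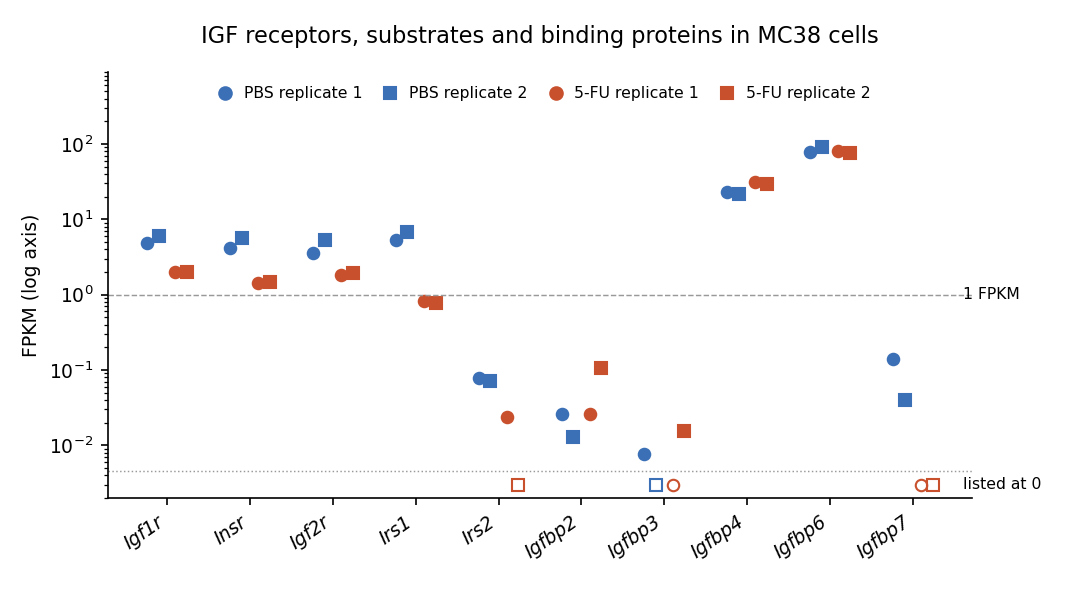
FPKM of each member (log axis) in the 4 libraries, with PBS in blue, 5-FU in red, circles for replicate 1 and squares for replicate 2; open symbols below the dotted line are values listed at 0. Igfbp6 and Igfbp4 lie highest in both groups, the receptors and Irs1 lie between 3.53 and 6.86 FPKM in PBS and between 0.785 and 2.01 in 5-FU, and the other 4 genes lie below 0.2 FPKM.

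The order of levels in PBS was Igfbp6 (mean 84.0 FPKM), Igfbp4 (22.1), Irs1 (6.06), Igf1r (5.47), Insr (4.90) and Igf2r (4.43). From Irs1 to Igf2r, the range of each gene over the PBS libraries overlapped that of the next, but both libraries gave this same order. In 5-FU the order was Igfbp6 (78.4 FPKM), Igfbp4 (30.4), Igf1r (1.99), Igf2r (1.87), Insr (1.43) and Irs1 (0.805), with no overlap between neighbours. Irs1 thus moved from the third to the sixth place. Summed over Igf1r, Igf2r, Insr and Irs1, the level was 17.9 and 23.8 FPKM in PBS and 6.05 and 6.14 in 5-FU. Igfbp4 and Igfbp6 together held 84.7% and 82.4% of the summed FPKM of the 10 genes in PBS, and 94.9% and 94.4% in 5-FU.

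The promoters of 5 of the 6 tested members are shown, 3 of genes that fell (Igf1r, Igf2r and Irs1) and 2 of the binding proteins that did not. Promoters from RefSeq on GRCm38.p6 were matched for 9 of the 10 members, and that of Insr, which also fell, was not used here. Each sequence is the 250 bases before a RefSeq start, read 5′ to 3′ on the gene's strand. Capitals mark matches on either strand to the GC box GGGCGG, to ACGTG (found in hypoxia response elements, but not only there) or to the forkhead motif GTAAACA.
Igf1r, chr7:67952007-67952256, plus strand: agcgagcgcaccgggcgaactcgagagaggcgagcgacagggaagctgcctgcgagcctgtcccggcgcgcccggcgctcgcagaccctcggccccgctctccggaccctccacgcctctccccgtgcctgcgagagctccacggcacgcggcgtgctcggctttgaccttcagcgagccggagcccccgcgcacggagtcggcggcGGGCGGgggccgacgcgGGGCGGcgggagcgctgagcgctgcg
Igf2r, chr17:12769707-12769956, minus strand: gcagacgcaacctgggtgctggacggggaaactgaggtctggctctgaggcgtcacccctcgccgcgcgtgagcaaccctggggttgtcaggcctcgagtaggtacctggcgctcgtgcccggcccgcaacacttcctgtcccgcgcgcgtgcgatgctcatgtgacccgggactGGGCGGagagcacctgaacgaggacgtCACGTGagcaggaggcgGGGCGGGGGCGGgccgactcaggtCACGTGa
Irs1, chr1:82291440-82291689, minus strand: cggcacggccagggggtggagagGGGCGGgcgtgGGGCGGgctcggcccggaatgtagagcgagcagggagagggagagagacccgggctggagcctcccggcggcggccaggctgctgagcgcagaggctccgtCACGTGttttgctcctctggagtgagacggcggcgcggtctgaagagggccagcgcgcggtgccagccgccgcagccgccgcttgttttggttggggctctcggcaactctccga
Igfbp4, chr11:99040994-99041243, plus strand: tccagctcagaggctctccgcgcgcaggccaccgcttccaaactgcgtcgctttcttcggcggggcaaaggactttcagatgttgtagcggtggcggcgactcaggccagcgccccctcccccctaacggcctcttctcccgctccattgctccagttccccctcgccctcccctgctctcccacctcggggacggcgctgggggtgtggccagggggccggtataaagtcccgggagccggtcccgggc
Igfbp6, chr15:102143936-102144185, plus strand: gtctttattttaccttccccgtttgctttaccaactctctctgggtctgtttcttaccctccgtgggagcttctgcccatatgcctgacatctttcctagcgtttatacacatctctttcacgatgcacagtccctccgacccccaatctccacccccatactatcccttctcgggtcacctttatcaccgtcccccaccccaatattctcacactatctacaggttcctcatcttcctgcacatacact
None of these 250-base windows overlapped an exon of GENCODE M21. Igf1r held 2 GC boxes, the nearer 26 bases before the start, Igf2r held 3 and Irs1 held 2, while Igfbp4 and Igfbp6 held 0. Binding protein genes as a group did not lack GC boxes. Of the members that were not tested, Igfbp7 held 4, Irs2 held 1 and Igfbp3 held 0, and the 2 windows of Igfbp2 held 3 and 0. A GC box was present in 59.4% of the 10849 promoters of tested genes and in 32.7% of all 32851 promoters. Among the 5 shown, ACGTG was found in Igf2r and Irs1, each time inside CACGTG, which reads the same on both strands and so counts for each strand. ACGTG was also found in Igfbp7, Irs2 and 1 window of Igfbp2. It was present in 22.3% of tested promoters. GTAAACA was found in 0 of the 5 shown and in 2.09% of tested promoters. The GC content was 77.6% for Igf1r, 69.2% for Igf2r, 72.4% for Irs1, 69.2% for Igfbp4 and 49.6% for Igfbp6, against a median of 52.4% for all promoters. These matches describe letters in 1 window per gene (2 for Igfbp2) and were not tested for any relation to the levels.

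Igf1r (ENSMUSG00000005533, chromosome 7, 67952827 to 68233668, plus strand, GRCm38), which encodes the receptor that both IGFs signal through, measured 4.89 and 6.04 FPKM in PBS and 2.01 and 1.97 in 5-FU. These values rest on an estimated 3400 and 4220 reads in PBS and 703 and 681 in 5-FU. Both 5-FU libraries lay below both PBS libraries, an order that 45.1% of tested genes showed, and the spread between the PBS libraries (SD 0.810 FPKM) was larger than that between the 5-FU libraries (SD 0.0318). The mean was 2.75-fold lower after 5-FU, and the log2 difference on the log2(FPKM + 1) scale was -1.11 (SE 0.152, limma adjusted p = 0.00612). Insr (chromosome 8, 3122061 to 3279617, minus strand), the insulin receptor gene, measured 4.20 and 5.60 FPKM in PBS and 1.41 and 1.45 in 5-FU. Its groups did not overlap either, and it was 3.43-fold lower (log2 difference -1.27, SE 0.17, limma adjusted p = 0.00578). The receptor-related gene Insrr was below the filter in all libraries, at 0.538 and 0.189 FPKM in PBS and at 0.0168 and 0.017 in 5-FU, the latter about 2 reads each.

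Igf2r (chromosome 17, 12682406 to 12769664, minus strand), the IGF2 clearance and mannose 6-phosphate receptor gene, measured 3.53 and 5.33 FPKM in PBS and 1.81 and 1.94 in 5-FU. The groups did not overlap, but the PBS libraries differed 1.51-fold from each other, the widest gap among the 6 tested members. The mean was 2.37-fold lower, with a log2 difference of -0.90 (SE 0.204, limma adjusted p = 0.0213). This call was lost in 6 of 15 alternative settings, among them quantile normalization (0.0842) and no low-value filter (0.0772). In mice Igf2r is imprinted and its paternal copy is silenced by Airn, a long RNA transcribed from within Igf2r on the opposite strand. Airn was listed at 0.405 and 0.946 FPKM in PBS and at 0.0536 and 0.0135 in 5-FU (about 60.2, 142, 4.02 and 1.00 reads) and was too low to test. The genes overlap, but in GENCODE M21 their exons share 0 bases. The Airn to Igf2r ratio was 0.115 and 0.177 in PBS and 0.0297 and 0.00697 in 5-FU, in the same direction as Airn itself.

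Irs1 (chromosome 1, 82233101 to 82291416, minus strand), which encodes the docking protein that links the receptors to PI3 kinase, showed the largest difference among the 6 tested members. It measured 5.26 and 6.86 FPKM in PBS and 0.824 and 0.785 in 5-FU, on about 1990 and 2610 reads in PBS and 157 and 148 in 5-FU. The mean was 7.53-fold lower (log2 difference -1.96, SE 0.166, limma adjusted p = 0.00302), and only 2.16% of tested genes had a lower difference. Its exons share 2822 bases with Gm9747 on the opposite strand, which was listed at 0 in every library. Irs2, the related docking protein gene, was nearly silent: it measured 0.0781 and 0.0717 FPKM in PBS (about 20.4 and 18.9 reads), 0.0239 in 5-FU replicate 1 (about 3.14 reads), and was listed at 0 in 5-FU replicate 2, where 3 reads would be 0.023 FPKM. Irs1 was therefore the main Irs transcript of these cells in both groups, as the related genes Irs3 and Irs4 were at most 0.0411 and 0.0305 FPKM.

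**Figure D2:**
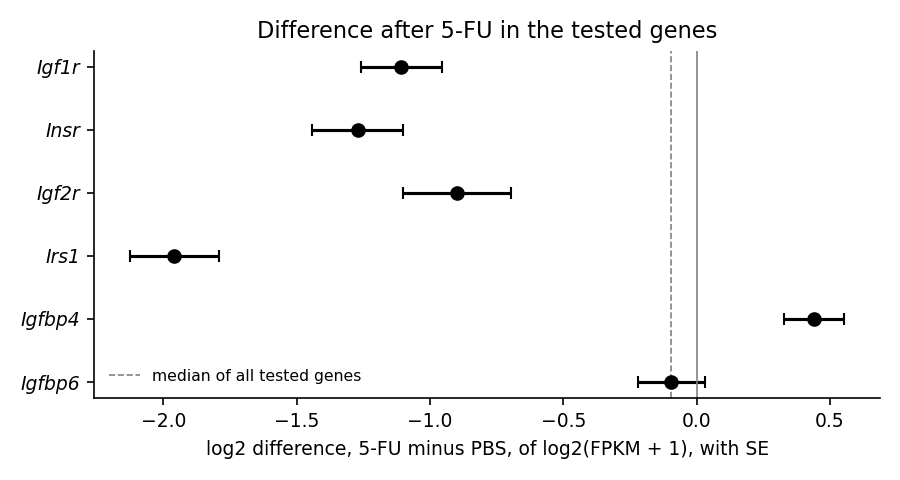
Log2 difference, 5-FU minus PBS, on the log2(FPKM + 1) scale for the 6 tested members; points are limma estimates from 2 libraries per group, bars are SE, and the dashed line is the median of all tested genes (-0.0971). Irs1 lies lowest at -1.96, the 3 receptors lie between -1.27 and -0.90, Igfbp6 lies close to the median and Igfbp4 lies at 0.44.

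The falls in the receptors and Irs1 did not hold in limma when a 5-FU library was left out. Without 5-FU replicate 1 the adjusted p was 0.0945 for Igf1r, 0.0817 for Insr, 0.167 for Igf2r and 0.0508 for Irs1. Without 5-FU replicate 2 it was 0.0991, 0.08, 0.149 and 0.0514 in the same order. Among all tested genes the count lower then dropped from 3628 to 237 and 299, since the error was taken from the wider PBS pair. The log2 differences themselves moved little, between -1.97 and -1.94 for Irs1 and between -1.12 and -1.10 for Igf1r.

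The genes that fell are long, and long genes were lower more often in these libraries. The genomic span was 280.8 kb for Igf1r, 157.6 kb for Insr, 87.3 kb for Igf2r and 58.3 kb for Irs1, against 13.2 kb for Igfbp4 and 5.15 kb for Igfbp6. Of the 383 tested genes that span at least 200 kb, 61.1% passed as lower, against 54.3% of the 822 from 100 to 200 kb, 43.3% of the 1571 from 50 to 100 kb, and 21.8% of the 3630 under 10 kb. Within their own span classes, 23.2% of genes had a lower difference than Igf1r, 17.0% a lower one than Insr and 25.3% a lower one than Igf2r, so these 3 were not extreme for their span. For Irs1 the share was 2.55%. The part of gene length in these falls was not tested beyond the 2 fits that follow. With exonic length the picture was alike: 52.7% of the 583 tested genes with at least 12 kb of exons passed as lower, against 15.9% of the 2459 with under 2 kb. With the trend with span removed, the log2 difference was -0.52 for Igf1r (limma adjusted p = 0.0445), -0.77 for Insr (0.0217), -0.53 for Igf2r (0.09) and -1.70 for Irs1 (0.00413). With the trend with exonic length removed, it was -0.61 (0.0283), -0.83 (0.0175), -0.58 (0.0726) and -1.64 (0.00441). The call of Igf2r was therefore lost under both, and that of Irs1 was kept.

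**Figure D3:**
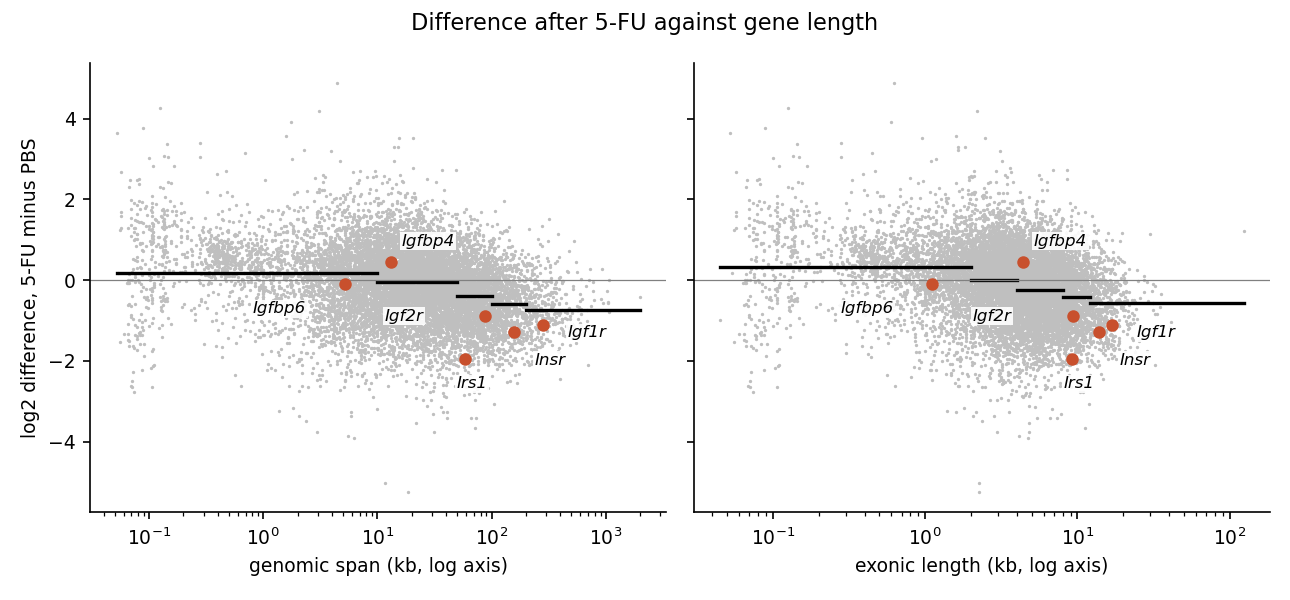
Log2 difference, 5-FU minus PBS, of the 11644 tested genes (grey, where the annotation gives a length) against genomic span (left) and exonic length (right), in kb on log axes; black lines are medians of length classes and red points are the 6 tested members. The class medians fall from 0.182 under 10 kb of span to -0.729 from 200 kb, Irs1 lies far below its class, and Igf1r, Insr and Igf2r lie closer to theirs.

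Among the binding proteins, Igfbp6 and Igfbp4 were expressed and the rest were close to silent. Igfbp6 (chromosome 15, 102144362 to 102149511, plus strand), whose product prefers IGF2 over IGF1, measured 77.2 and 90.8 FPKM in PBS and 80.7 and 76.1 in 5-FU. The groups overlapped, and the log2 difference of -0.09 (SE 0.127) did not pass (limma adjusted p = 0.555). Without PBS replicate 1 it was -0.21 and passed as lower (limma adjusted p = 0.0266), and without PBS replicate 2 it was 0.021 (0.786). It was -0.22 with the trend with span removed (limma adjusted p = 0.215), -0.30 with quantile normalization (0.141) and -0.41 after removal of the exonic length trend (0.052), none of which passed. Igfbp4 (chromosome 11, 99041244 to 99054392, plus strand), whose product holds IGFs away from the receptor until it is cut by the protease PAPP-A, measured 22.9 and 21.4 FPKM in PBS and 31.6 and 29.2 in 5-FU. Both 5-FU libraries lay above both PBS libraries, where 35.9% of tested genes showed that order. The mean was 1.37-fold higher (log2 difference 0.44, SE 0.113, limma adjusted p = 0.0298). It no longer passed in 5 of 16 alternative settings, among them the fits without 5-FU replicate 1 (limma adjusted p = 0.324) or 2 (0.23), without mitochondrial and ribosomal protein genes (0.0671) and with the trend with span removed (0.0803).

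Igfbp7 (chromosome 5, 77349240 to 77408041, minus strand), which encodes a secreted protein with low affinity for IGFs, was listed at 0.14 and 0.0396 FPKM in PBS (about 6.98 and 1.99 reads) and at 0 in both 5-FU libraries, where 3 reads would be 0.119 and 0.12 FPKM. A difference was not detectable at this depth. Its exons share 85 bases with Polr2b on the opposite strand, which measured 39.3 and 32.7 FPKM in PBS and 64.4 and 67.3 in 5-FU. Reads from the shared stretch cannot be assigned, since no source used here gives the strand setting. Igfbp2 was listed at 0.0262 and 0.013 FPKM in PBS and at 0.026 and 0.105 in 5-FU, which is 1 to 4 reads per library. Igfbp3, often described as a p53 target gene, was listed at 0.00773 and 0 FPKM in PBS and at 0 and 0.0155 in 5-FU, at most 1 read per library. Outside the 10 members, Igfbp1 was at most 0.0318 FPKM, and Igfbp5 measured 0.093 and 0.208 FPKM in PBS (about 23.1 and 52.0 reads), 0.00577 in 5-FU replicate 1 and 0 in 5-FU replicate 2. The related gene Igfbpl1 was listed at 0 throughout.

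The balance between members within a library does not depend on how libraries are scaled to each other, but it can carry the trend with gene length. Exonic length was 1.11 kb for Igfbp6, 4.42 kb for Igfbp4 and 16.8 kb for Igf1r. The median log2 difference of tested genes was 0.321 under 2 kb of exons and -0.561 from 12 kb. The part of length in these ratios was not tested. Irs1 was 1.08 and 1.14 times Igf1r in PBS and 0.41 and 0.399 times Igf1r in 5-FU. Igf1r was 1.17 and 1.08 times Insr in PBS and 1.43 and 1.36 times Insr in 5-FU, a smaller shift. Igf2r was 0.722 and 0.883 times Igf1r in PBS and 0.898 and 0.988 times in 5-FU, where the groups lay close together. Igfbp4 was 4.67 and 3.55 times Igf1r in PBS and 15.7 and 14.9 times in 5-FU. Igfbp6 was 15.8 and 15.0 times Igf1r in PBS and 40.2 and 38.7 times in 5-FU. The ratio of Igfbp6 to Igfbp4 was 3.38 and 4.24 in PBS and 2.56 and 2.60 in 5-FU. In each of these ratios the groups did not overlap. Among single tested genes this was common, at 45.1% lower and 35.9% higher in 5-FU, and no share was taken over ratios of other gene pairs. Ratios that share Igf1r or Irs1 also restate the falls of those genes. With 2 libraries per group an exact permutation test cannot reach the threshold and none was run. In these bulk samples, fewer cells carrying a transcript and less of it per cell cannot be told apart.

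**Figure D4:**
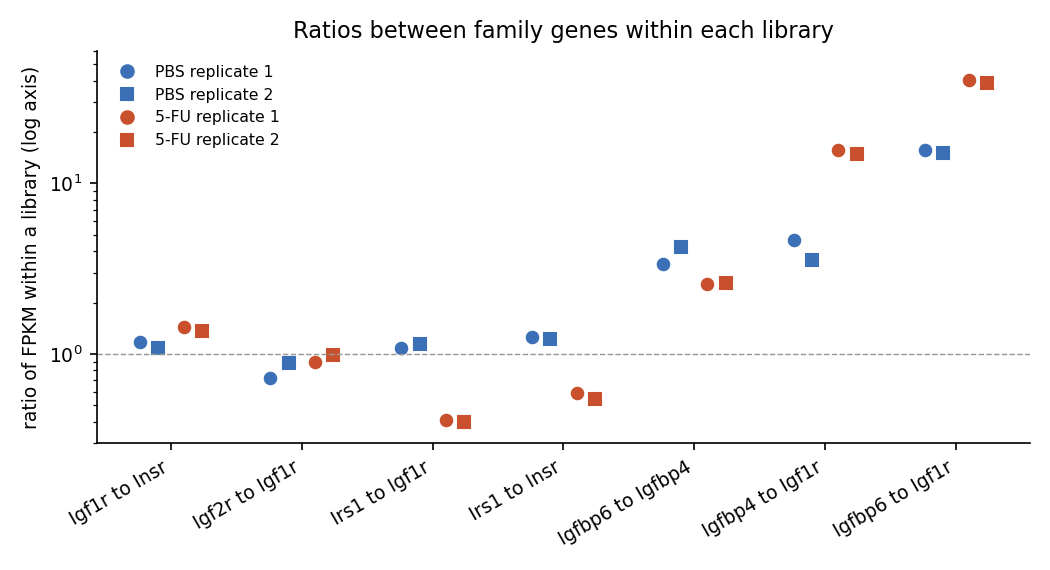
Ratio of the FPKM of named pairs of members within each library (log axis), with PBS in blue, 5-FU in red, circles for replicate 1 and squares for replicate 2. The ratio of Irs1 to Igf1r drops below 1 in the 5-FU libraries (0.41 and 0.399), and the ratios of Igfbp4 and Igfbp6 to Igf1r lie higher in 5-FU than in PBS.

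The ligands were not detected at a level that could be tested. Igf2, Ins1 and Ins2 were listed at 0 in every library, where 3 reads of Igf2 would be 0.0127 and 0.0126 FPKM in PBS and 0.0252 and 0.0254 in 5-FU. Igf1 was at most 0.0097 FPKM, which is at most 2 reads per library. Pappa and Pappa2, which encode proteases that release IGFs from binding proteins, were near 0 as well, at most 0.00658 and 0.0187 FPKM. Their inhibitors, the stanniocalcins, were expressed in PBS. Stc2 measured 11.9 and 12.2 FPKM in PBS and 2.67 and 2.65 in 5-FU, and fell by 1.83 on the log2(FPKM + 1) scale (limma adjusted p = 0.0027). Stc1 was listed at 1.29 and 0.809 FPKM in PBS and at 0.0385 and 0.0389 in 5-FU (about 3.36 reads each) and was below the filter. Htra1, a secreted protease that can cut binding proteins, measured 33.3 and 43.1 FPKM in PBS and 31.5 and 30.8 in 5-FU and did not pass (limma adjusted p = 0.195).

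Beyond the 10 members, 74 genes of the pathway were listed and 53 could be tested. Of these 53, 8 rose (15.1%) and 18 fell (34.0%), against 22.1% and 31.2% of all tested genes, so the shares were near the background or, for rises, below it. The median log2 difference of the 53 was -0.15, against -0.0971 for all tested genes. Among 8 substrates and adaptors 2 rose and 1 fell (median 0.07). Sh2b1, an adaptor that binds activated receptors, measured 20.9 and 11.9 FPKM in PBS and 36.9 and 33.4 in 5-FU (log2 difference 1.10). It was 0.72 without PBS replicate 2, and the call was lost with no filter on low values (limma adjusted p = 0.0938). The related adaptor gene Sh2b2 measured 7.06 and 8.71 FPKM in PBS and 2.65 and 2.84 in 5-FU and fell by 1.24 on the log2(FPKM + 1) scale. Grb2, which links receptors to RAS, rose by 0.42, a call lost in 7 of 16 alternative settings.

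In the PI3K-AKT arm 9 of 17 tested genes fell and 2 rose, with a median of -0.62. Pdpk1, which encodes the kinase PDK1 that activates AKT, measured 7.47 and 6.44 FPKM in PBS and 1.45 and 1.41 in 5-FU. It fell by 1.71 on the log2(FPKM + 1) scale (limma adjusted p = 0.00294). The forkhead factor gene Foxo3, whose product AKT restrains, measured 8.81 and 13.9 FPKM in PBS and 2.85 and 2.80 in 5-FU. Akt1 measured 75.3 and 55.2 FPKM in PBS and 74.1 and 70.1 in 5-FU and did not pass (limma adjusted p = 0.481). The AKT phosphatase gene Phlpp2 and the kinase gene Gsk3a rose by 0.90 and 0.63. The call of Gsk3a was lost in 7 of 16 alternative settings, and its difference was 0.41 without PBS replicate 2. In the mTOR arm 6 of 16 tested genes fell and 3 rose (median -0.20). Deptor, an inhibitor of mTOR, had the lowest difference of the 53, from 6.82 and 7.70 FPKM in PBS to 0.947 and 0.907 in 5-FU (log2 difference -2.10, limma adjusted p = 0.0027). The translation repressor gene Eif4ebp2 and the S6 kinase gene Rps6kb1 fell by 1.58 and 1.02, and Akt1s1, Mlst8 and Rheb, which encode an mTORC1 inhibitor, a shared mTOR subunit and the GTPase that activates mTORC1, rose by 0.88, 0.76 and 0.43. The calls of Mlst8 and Rheb were each lost in 5 of 16 alternative settings, and the difference of Mlst8 was 0.47 without PBS replicate 2.

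For the sorting of lysosomal enzymes, the other task of the Igf2r product, 1 of 10 tested genes rose and 1 fell (median 0.06). M6pr, which encodes the smaller cation-dependent receptor of the same pathway, measured 85.9 and 73.8 FPKM in PBS and 107.4 and 111.9 in 5-FU. It rose by 0.46 (limma adjusted p = 0.0338) while Igf2r fell, a call lost in 7 of 16 alternative settings. The adaptor gene Gga1 fell by 0.48, a call lost in 5 of 16. Over all the lists, the counts outside the 10 members went from 18 lower and 8 higher to 1 and 0 without 5-FU replicate 1 and likewise to 1 and 0 without 5-FU replicate 2. They were 28 lower and 15 higher without PBS replicate 2, and 14 genes were higher without PBS replicate 1. With the trend with span removed they were 15 lower and 8 higher, and after removal of the exonic length trend 17 and 9.

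The 3 tested genes whose profile over the 4 libraries lay closest to that of Igf1r were Rab3gap2, Fzd7 and Blm, with Euclidean distances of 0.0216, 0.028 and 0.0281 between log2(FPKM + 1) values centred on each gene's mean. Rab3gap2 measured 15.9 and 18.9 FPKM in PBS and 7.70 and 7.51 in 5-FU. With 4 libraries in 2 groups, such closeness means only that the group difference and the gap between the PBS libraries were of like size. The 4 members that fell were also alike in that gap: PBS replicate 2 was 1.23 times replicate 1 for Igf1r, 1.34 for Insr, 1.51 for Igf2r and 1.30 for Irs1. The gap was not particular to them, as Igfbp6, which did not pass, had a ratio of 1.175. For Igfbp4 it was 0.937. Of all tested genes, 42.4% were higher in PBS replicate 2.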

How the data were processed

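Libraries of polyadenylated RNA were made from MC38 cells (2 PBS, 2 5-FU), per the labels' protocols. The authors deposited 1 table of FPKM values per gene and library. Per the submitters' processing notes, the tools included STAR 2.4.1a and Picard 2.9.0, with build GRCm38. No source used here gives the counting program, annotation or strand setting. Coordinates and lengths came from GENCODE M21 on GRCm38, which held 36295 of the 36445 gene IDs. Depth was estimated from the smallest FPKM steps times exonic length. Between 63.1% and 65.1% of values under 100 reads lay within 0.02 of a whole read, so estimated reads are approximate, and floors of 3 reads cover counting error only.

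Groups were compared with limma 3.58.1 in R 4.3.3 (intensity trend, pseudocount 1 FPKM, two-sided, adjusted over all tested genes). The fit was tested on simulated data. Alternatives were pseudocounts of 0.1 and 0.5, no filter, a minimum mean of 5 FPKM, quantile and median-ratio scaling, removal of mitochondrial and ribosomal protein genes, eBayes without trend or robust, a replicate block, removal of the span trend and leaving out each library. Removal of the exonic length trend was added after seeing the data. All members were named, with up to 3 passing genes per list and direction, the ligands and other binding proteins, and the 3 genes closest to Igf1r. Genes outside that rule (Stc1, Insrr, Irs3, Irs4, Airn, Akt1, Htra1, Pappa, Pappa2, Vil1, Fn1, Pdgfra and overlapping genes) were chosen after their values were seen. The members and lists were chosen with earlier results of these data known. Some genes that the rule names are left out of the text.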

Additional observations from a re-analysis of the deposited data

How the results depend on the processing

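Irs1, Igf1r and Insr were lower in each alternative fit that could test them, and passed in all of these but the fits without 5-FU replicate 1 or 2, where the log2 difference was -1.97 and -1.94 for Irs1, -1.12 and -1.10 for Igf1r and -1.26 and -1.28 for Insr. A mean of at least 5 FPKM removed all 4 of the members that fell from the fit, which left 0 lower members, 9 lower pathway genes and 2158 lower genes in all. Members passing as higher were 0 without mitochondrial and ribosomal protein genes and with the genomic span trend removed, where Igfbp4 lost its call. Pathway genes passing as higher were 2 with no filter on low values and 3 without mitochondrial and ribosomal protein genes. Leaving out each library gave 0 to 5 lower and 0 to 1 higher members, 1 to 28 lower and 0 to 15 higher pathway genes, and 237 to 5249 lower and 259 to 4385 higher genes in all. With a library left out, the log2 difference of Igfbp6 lay between -0.21 (without PBS replicate 1) and 0.021 (without PBS replicate 2), against -0.09 with all libraries, and the cause was not tested. Over all alternatives its lowest value was -0.41, with the exonic length trend removed. Igf2r also lost its call with quantile normalization (limma adjusted p = 0.0842) and without a filter on low values (0.0772). Quantile normalization moved the median log2 difference of all tested genes from -0.0971 to 0.0211 and turned no member's direction. With the replicate block, 0 members passed as higher and Igfbp4 had a limma adjusted p of 0.0571; no other member changed its call, while Grb2, Rheb, M6pr and Gga1 lost theirs (0.0649, 0.0734, 0.056 and 0.0508). The labels share replicate numbers but state no pairing, and deviations of same-numbered libraries were not correlated across genes (r = -0.0101). Irs2, Igfbp2, Igfbp3 and Igfbp7 rest on about 20.4 reads or fewer per library in both groups, and the lower depth of the 5-FU libraries limits them further.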
